A study of Mus musculus with 12 samples.

Results

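The genes described here make, break down and sense prostaglandins, and were chosen by name from a list of 10 enzymes and receptors. Of these, 9 could be read, out of 24675 genes with a named probe set: the inducible cyclooxygenase gene Ptgs2, the prostaglandin E synthase genes Ptges, Ptges2 and Ptges3, the prostaglandin D synthase gene Hpgds, the breakdown enzyme gene Hpgd, and the receptor genes Ptger2, Ptger4 and Ptgir. The remaining gene of the list, Ptgs1, was not analysed here. Each of the 9 has 1 probe set, and no filter on expression was applied.

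Expression was measured on 12 arrays of mouse bone marrow-derived macrophages, in 4 groups of 3: hepcidin for 1 h, PBS for 1 h, hepcidin for 3 h and PBS for 3 h. Hepcidin, a peptide hormone made mainly by the liver, controls iron export from cells, and PBS served as the control. All groups share the same source, wild-type mice aged 8 to 10 weeks, 7 days of culture in medium with an L-cell supplement that supplies M-CSF, and 1 h in DMEM alone before the peptide was added. The labels name hepcidin doses of 1 µg/ml and 10 µg/ml in different places, so the dose is not settled. Whether the 3 arrays of a group stand for different mice or dishes is not stated, so the p-values measure only the spread between these arrays, which may be technical. The median log2 level of an array was 4.84 to 4.94, and r within a group was 0.994 to 0.997.

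Prostaglandins are short-lived lipid signals made from arachidonic acid, which phospholipases free from membranes. Cyclooxygenases turn it into prostaglandin H2, and terminal synthases turn that into prostaglandin E2, D2 or prostacyclin. Macrophages are a known source of prostaglandin E2 and D2 in inflamed tissue. Prostaglandin E2 acts through EP receptors, of which EP2 (Ptger2) and EP4 (Ptger4) raise cAMP, as does the prostacyclin receptor (Ptgir), and 15-hydroxyprostaglandin dehydrogenase (Hpgd) starts its inactivation.

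The sequences before the start sites of 4 of the genes are shown as examples of each direction: Ptgs2 and Ptger4 were called higher with hepcidin than with PBS at both times, and Hpgd and Hpgds were called lower at 3 h. Each run is the 250 bases before the start site annotated by RefSeq on GRCm38.p6, read 5′ to 3′ on the gene's own strand, and capitals mark matches to the motifs named next.
Ptgs2, chr1:150099781-150100030, plus strand: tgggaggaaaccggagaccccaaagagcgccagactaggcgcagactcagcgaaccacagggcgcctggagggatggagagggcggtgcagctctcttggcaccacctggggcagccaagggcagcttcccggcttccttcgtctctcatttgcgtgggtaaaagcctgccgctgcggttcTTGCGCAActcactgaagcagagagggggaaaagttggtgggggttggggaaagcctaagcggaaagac
Ptger4, chr15:5244188-5244437, minus strand: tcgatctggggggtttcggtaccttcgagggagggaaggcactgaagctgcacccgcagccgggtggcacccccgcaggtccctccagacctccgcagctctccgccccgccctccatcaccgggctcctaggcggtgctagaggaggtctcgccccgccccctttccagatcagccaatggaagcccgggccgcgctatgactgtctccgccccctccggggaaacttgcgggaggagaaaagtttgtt
Hpgd, chr8:56294302-56294551, plus strand: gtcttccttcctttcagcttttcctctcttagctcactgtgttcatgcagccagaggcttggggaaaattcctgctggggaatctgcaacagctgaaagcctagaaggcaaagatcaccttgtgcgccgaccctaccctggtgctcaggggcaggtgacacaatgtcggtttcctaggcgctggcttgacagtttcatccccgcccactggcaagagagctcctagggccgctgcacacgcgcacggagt
Hpgds, chr6:65144731-65144980, minus strand: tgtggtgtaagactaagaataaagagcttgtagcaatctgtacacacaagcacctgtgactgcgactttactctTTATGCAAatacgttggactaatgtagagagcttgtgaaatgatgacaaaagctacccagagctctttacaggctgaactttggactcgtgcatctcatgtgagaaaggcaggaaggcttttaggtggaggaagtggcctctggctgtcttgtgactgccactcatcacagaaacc

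The window of 300 bases around the start site (250 before it and 50 from it on) was searched on both strands for 6 motifs. These were the NF-kB consensus by name, the CRE core TGACG, AP-1 as TGANTCA, the E-box CACGTG, the C/EBP consensus TTGCNNAA and the TATA box TATAAA. The CRE core is only a part of the CRE, not the whole site. Ptgs2 held a C/EBP match that reads the same on both strands, at positions -69 to -62 (position -1 is the last base before the start). Ptgs2 also held a CRE core and an E-box that overlap and span positions 14 to 22, with the annotated start counted as position 1. They lie at chr1:150100044-150100052 on the plus strand, shown in capitals with 10 bases on each side.
Ptgs2, CRE core and E-box: gtcaccactaCGTCACGTGgagtccgctt

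Of all 32851 promoter windows in the RefSeq table, 20.8% held the CRE core, 7.15% the E-box and 10.8% the C/EBP consensus. Among the 9 genes the CRE core was also found in Ptges3, the E-box in Ptges2, and the C/EBP consensus in Hpgds and Ptger2. Hpgd alone held the letters TATAAA, which 13.6% of windows hold, at positions 5 to 10 with the annotated start counted as position 1. This match lies after that start, not before it. No window of the 9 held the NF-kB consensus (4.51% of all windows) or AP-1 (7.81%), which says only that these letters are not in this window. A match is a description of letters and does not show a bound site.

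At 1 h, 2 of the 9 genes rose with hepcidin, Ptgs2 and Ptger4, and 0 fell. Across all genes, 0.559% were called at 1 h (an adjusted p under 0.05 in limma), 0.527% higher and 0.0324% lower. At 3 h, 4 genes were higher with hepcidin than with PBS (Ptgs2, Ptges, Ptger4 and Ptgir) and 2 were lower (Hpgd and Hpgds). Of all genes, 5.33% were called at 3 h, 2.80% higher and 2.53% lower. The hepcidin arrays lay wholly above the PBS arrays in 7 of the 9 genes at 3 h and wholly below them in 2, while 11.8% and 9.90% of all genes were separated in those directions (21.7% in either). At 1 h the arrays were separated upward in 3 genes and downward in 1, against 6.47% and 5.86% of all genes (12.3% in either). The median log2 change of the 9 genes was 0.04 at 1 h and 0.32 at 3 h, beside medians of -0.00 and 0.02 over all genes. The 9 genes were chosen with earlier results of these data known, so these counts describe them and do not test the set.

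**Figure D1:**
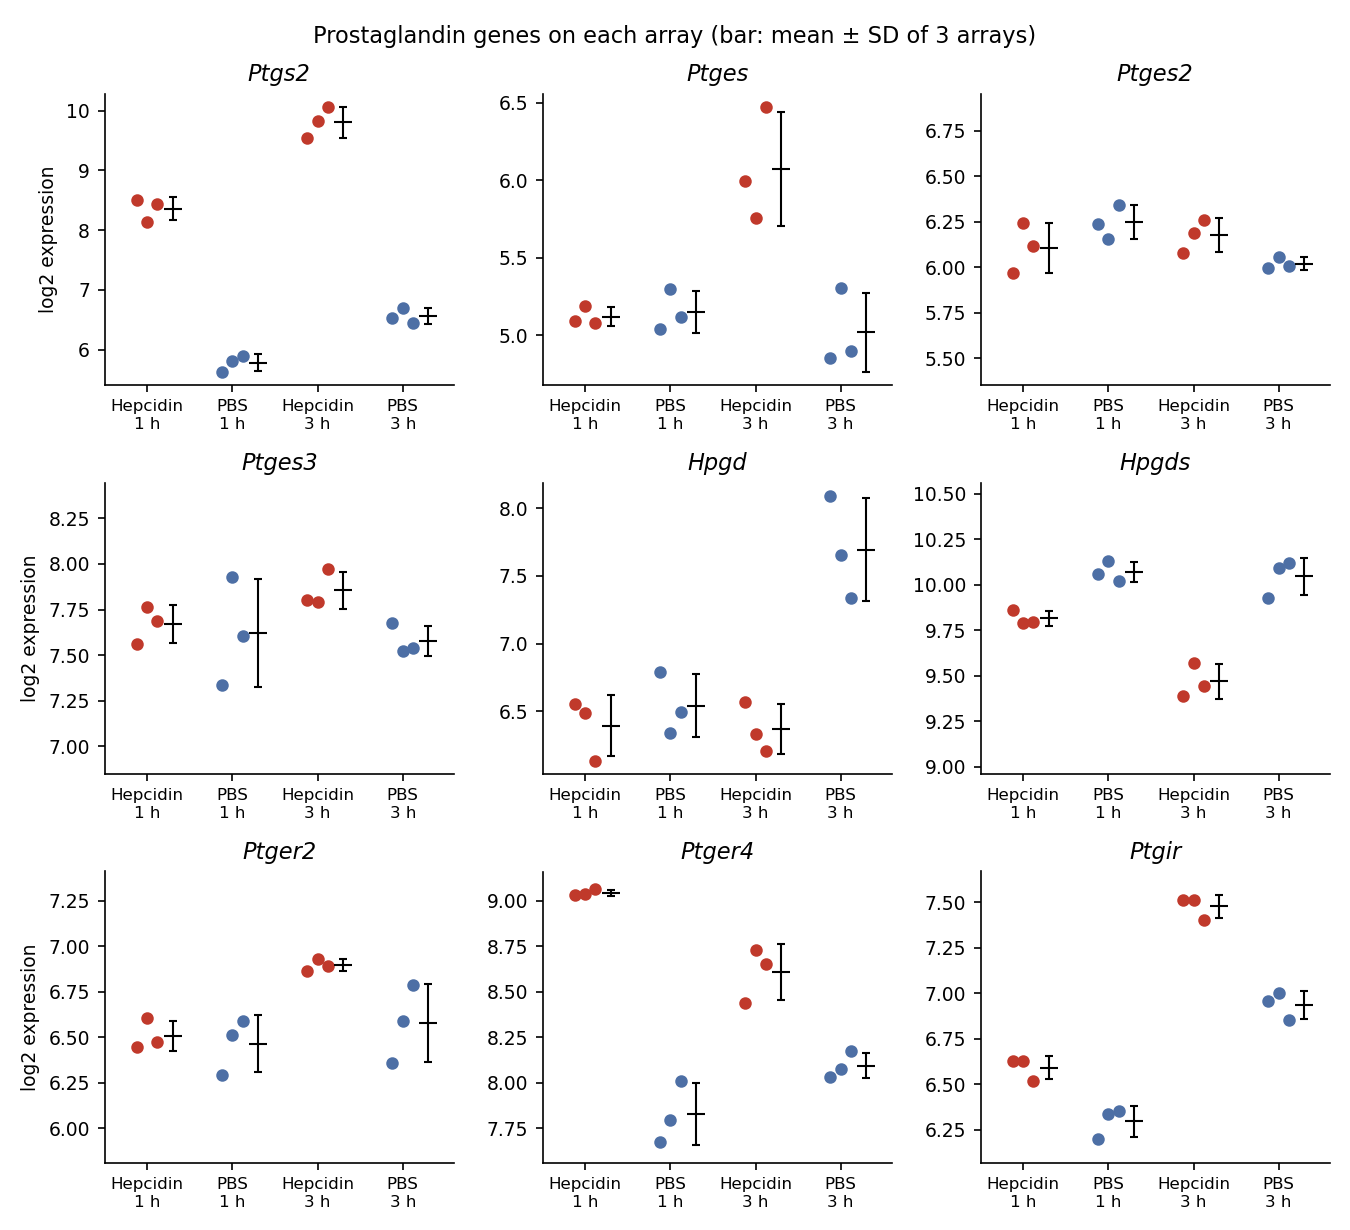
Log2 expression of the 9 prostaglandin genes on each array, with 3 arrays in each group (red, hepcidin; blue, PBS) and the mean ± SD as a bar beside the points. The vertical scale differs between panels, and the Ptgs2 arrays given hepcidin for 3 h sit between 9.54 and 10.06, above all other groups.

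Ptgs2 (Entrez gene 19225) encodes cyclooxygenase 2, the inducible enzyme that commits arachidonate to prostaglandins. At 1 h its log2 level was 8.50, 8.14 and 8.44 on the hepcidin arrays and 5.64, 5.82 and 5.90 on the PBS arrays. The groups were far apart, and the log2 change was 2.58 (SE 0.14, 5.96-fold, adjusted p = 5.6e-07). At 3 h the level was 9.54, 9.82 and 10.06 on the hepcidin arrays and 6.52, 6.70 and 6.44 on the PBS arrays, a change of 3.25 (SE 0.14, 9.50-fold, adjusted p = 4.01e-08). By size of rise among 24675 genes, Ptgs2 ranked 11 at 1 h and 7 at 3 h. The effect at 3 h exceeded that at 1 h by 0.67 on the log2 scale (95% interval 0.25 to 1.09), which did not pass the threshold (adjusted p = 0.178).

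Ptgs2 also differed between the times within each treatment. With hepcidin it averaged 9.80 ± 0.26 at 3 h and 8.36 ± 0.19 at 1 h (SD, n = 3 each), a rise of 1.44 (SE 0.14, adjusted p = 6.75e-05). In PBS it averaged 6.56 ± 0.13 at 3 h and 5.79 ± 0.14 at 1 h, a rise of 0.77 (SE 0.14, adjusted p = 0.0348) that ranked 10 of 24675 by size. The PBS rise lost its call without any 1 of the 6 PBS arrays, hepcidin 1 h replicate 3 or hepcidin 3 h replicate 2, at adjusted p-values up to 0.138. In order from low to high, the groups stood as PBS 1 h, PBS 3 h, hepcidin 1 h and hepcidin 3 h, and no neighbours overlapped.

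Among the enzymes that turn prostaglandin H2 into prostaglandin E2, Ptges (Entrez gene 64292) encodes the inducible microsomal synthase that is known to work with cyclooxygenase 2. Its log2 level at 3 h was 5.99, 5.75 and 6.47 on the hepcidin arrays and 4.85, 5.31 and 4.90 on the PBS arrays. All hepcidin arrays lay above all PBS arrays, and the change was 1.06 (SE 0.16, adjusted p = 0.0018). The PBS level was close to the middle of the array (4.88), where background enters the signal and a change reads smaller, so no fold is given.

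At 1 h Ptges showed no such separation. It read 5.09, 5.19 and 5.08 on the hepcidin arrays and 5.04, 5.30 and 5.12 on the PBS arrays, a change of -0.03 (95% interval -0.39 to 0.33, adjusted p = 0.995). The effect at 3 h was larger than that at 1 h by 1.09 (SE 0.23), with an adjusted p of 0.0502 that did not pass. Within the hepcidin arrays Ptges averaged 6.07 ± 0.37 at 3 h and 5.12 ± 0.06 at 1 h, a rise of 0.96 (SE 0.16, adjusted p = 0.00455). The groups hepcidin 1 h, PBS 1 h and PBS 3 h overlapped one another, and hepcidin 3 h stood above them all.

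The other E synthase genes, Ptges2 for a membrane-associated enzyme and Ptges3 for the cytosolic enzyme also known as the HSP90 cochaperone p23, did not pass at either time. Ptges3 read 7.80, 7.79 and 7.97 on the hepcidin arrays and 7.67, 7.52 and 7.54 on the PBS arrays at 3 h, a change of 0.28 (95% interval 0.00 to 0.55, adjusted p = 0.287). Ptges2 read 6.08, 6.19 and 6.26 on the hepcidin arrays and 6.00, 6.06 and 6.01 on the PBS arrays at 3 h, a change of 0.16 (95% interval -0.03 to 0.34, adjusted p = 0.384). In both genes the hepcidin arrays lay above the PBS arrays at 3 h, by margins smaller than those of Ptges. At 1 h the groups overlapped, with changes of 0.05 for Ptges3 and -0.14 for Ptges2.

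**Figure D2:**
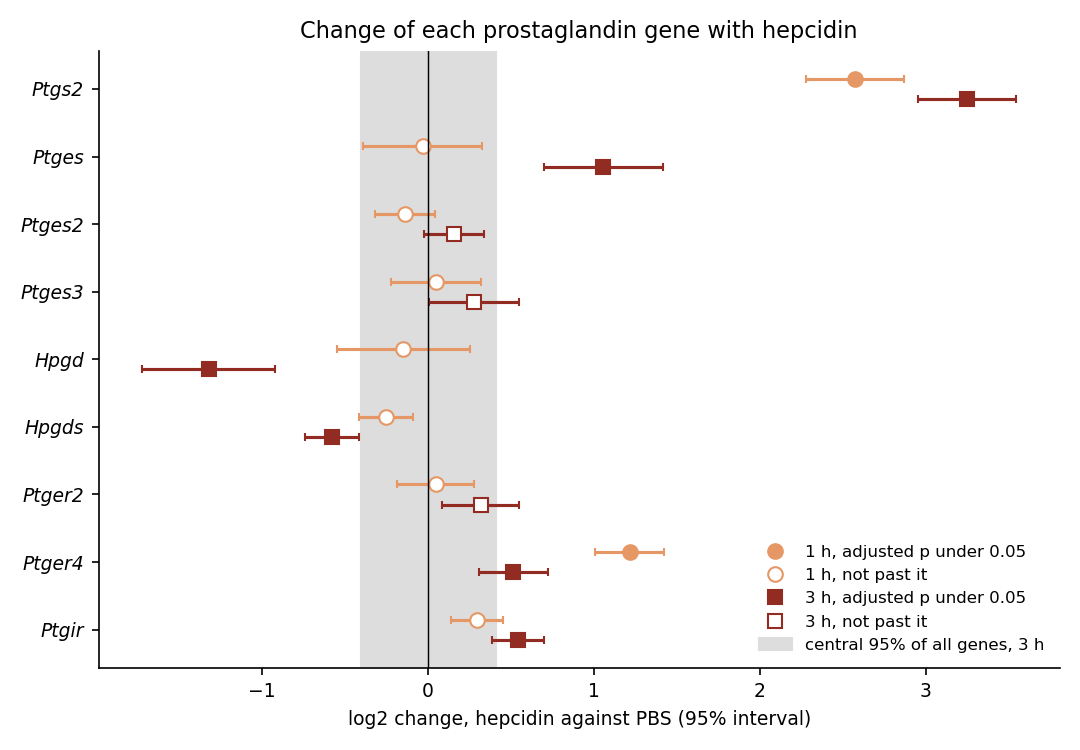
Log2 change of each gene, hepcidin against PBS, at 1 h (circles) and 3 h (squares) with limma's 95% interval as a bar; filled marks passed an adjusted p under 0.05, and the grey band holds the central 95% of all genes at 3 h (-0.41 to 0.41). Ptgs2 lies far to the right at both times, and at 3 h Ptges, Ptger4 and Ptgir lie right of the band and Hpgd and Hpgds left of it.

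Hpgds (Entrez gene 54486) encodes the haematopoietic prostaglandin D synthase. At 3 h its log2 level was 9.39, 9.57 and 9.45 on the hepcidin arrays and 9.93, 10.09 and 10.12 on the PBS arrays. It fell by 0.58 on the log2 scale (SE 0.07, 1.49-fold lower, adjusted p = 4.39e-04), with the groups apart. At 1 h the hepcidin arrays read 9.86, 9.79 and 9.80 and the PBS arrays 10.06, 10.13 and 10.02, also apart, but the change of -0.25 (95% interval -0.42 to -0.09) did not pass (adjusted p = 0.346). Hpgds was lower in hepcidin at 3 h than at 1 h by -0.35 (adjusted p = 0.0186), and its PBS groups overlapped. That decline within hepcidin lost its call without any 1 of the hepcidin 1 h arrays or without hepcidin 3 h replicate 1 or 3, at adjusted p-values up to 0.0668. Macrophage markers that fell at 3 h beside it were Mrc1, the mannose receptor gene, at -0.35 and the efferocytosis receptor gene Mertk at -1.08, while Spi1 rose by 0.30 and Cd14 by 0.80. In RNA from whole wells, fewer cells of a type and less RNA per cell cannot be told apart.

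Hpgd (Entrez gene 15446), the dehydrogenase that inactivates prostaglandin E2, read 6.57, 6.34 and 6.21 on the hepcidin arrays and 8.09, 7.65 and 7.33 on the PBS arrays at 3 h. The groups were apart, and Hpgd was lower with hepcidin than with PBS by 1.32 on the log2 scale (SE 0.18, 2.50-fold, adjusted p = 7.97e-04). By size of decrease against PBS at 3 h, Hpgd ranked 8 among 24675 genes. At 1 h it read 6.56, 6.48 and 6.14 on the hepcidin arrays and 6.79, 6.34 and 6.49 on the PBS arrays. Those groups overlapped, and the change was -0.15 (95% interval -0.55 to 0.25, adjusted p = 0.949).

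Over time Hpgd rose in PBS. It averaged 7.69 ± 0.38 at 3 h and 6.54 ± 0.23 at 1 h (SD, n = 3 each), a rise of 1.15 (SE 0.18, adjusted p = 0.0224) that ranked 3 of 24675 by size. The call was lost without replicate 2 or 3 of PBS at 1 h, or replicate 1 or 2 of PBS at 3 h, at adjusted p-values up to 0.0994. The hepcidin arrays averaged 6.37 ± 0.18 at 3 h and 6.39 ± 0.22 at 1 h, a difference of -0.02 (95% interval -0.42 to 0.38, adjusted p = 0.972). Hepcidin at 3 h, hepcidin at 1 h and PBS at 1 h overlapped, and PBS at 3 h alone stood above them. The difference between the effects at 3 h and 1 h was -1.17 (SE 0.26) and did not pass in limma (adjusted p = 0.0587). The 3 h comparison with PBS and the PBS time comparison share the PBS arrays of 3 h.

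**Figure D3:**
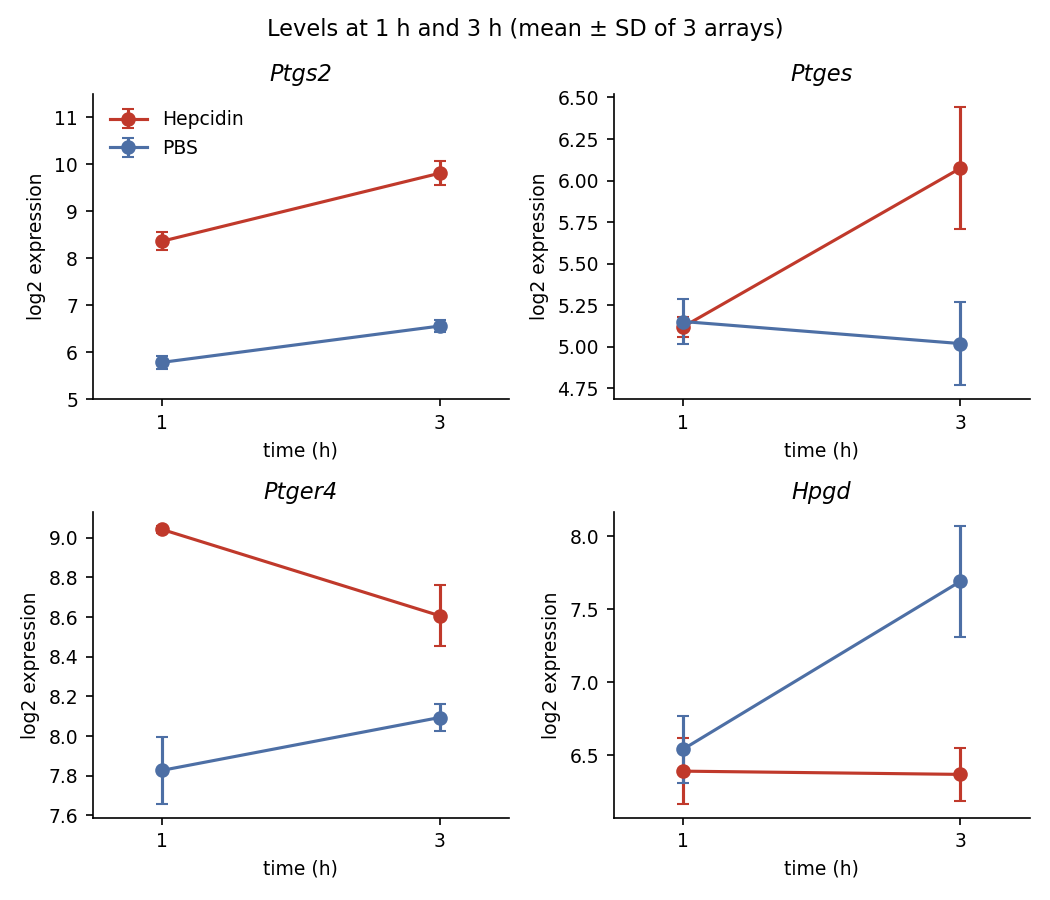
Mean log2 expression ± SD (n = 3 arrays) of Ptgs2, Ptges, Ptger4 and Hpgd at 1 h and 3 h, with hepcidin in red and PBS in blue. Ptges is highest in hepcidin at 3 h (6.07), Ptger4 is highest in hepcidin at 1 h (9.04), and Hpgd is highest in PBS at 3 h (7.69).

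Of the receptor genes, Ptger4 (Entrez gene 19219) encodes EP4, a receptor for prostaglandin E2. At 1 h it read 9.03, 9.04 and 9.06 on the hepcidin arrays and 7.68, 7.79 and 8.01 on the PBS arrays, and it rose by 1.22 (SE 0.10, 2.32-fold, adjusted p = 1.83e-05). At 3 h it read 8.44, 8.73 and 8.65 on the hepcidin arrays and 8.03, 8.08 and 8.17 on the PBS arrays. The groups were again apart, with a smaller rise of 0.51 (SE 0.10, 1.43-fold, adjusted p = 0.00673).

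The effect of hepcidin on Ptger4 at 3 h was lower than that at 1 h by -0.70 (SE 0.14, adjusted p = 0.0297), the 1 called difference among the 9 genes, beside 1.03% of all genes called in that comparison, 0.507% lower and 0.523% higher. It lost its call in 10 of 12 cases when an array was left out, at adjusted p-values up to 0.0964, and kept it when the array left out was replicate 3 of PBS at 1 h or replicate 2 of hepcidin at 3 h. Within hepcidin Ptger4 averaged 8.61 ± 0.15 at 3 h and 9.04 ± 0.02 at 1 h, a fall of -0.44 (adjusted p = 0.0211). That fall was not called without any 1 of the hepcidin 1 h arrays or without hepcidin 3 h replicate 1, at adjusted p-values up to 0.0722. From low to high the groups stood as PBS 1 h, PBS 3 h, hepcidin 3 h and hepcidin 1 h, and no neighbours overlapped.

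Ptgir (Entrez gene 19222), the prostacyclin receptor gene, moved with both hepcidin and time. At 3 h it read 7.51, 7.51 and 7.40 on the hepcidin arrays and 6.96, 7.00 and 6.85 on the PBS arrays, and it rose by 0.54 (SE 0.07, 1.45-fold, adjusted p = 5.77e-04). At 1 h it read 6.63, 6.63 and 6.52 on the hepcidin arrays and 6.20, 6.33 and 6.35 on the PBS arrays, a change of 0.29 (SE 0.07) that did not pass (adjusted p = 0.171) although the groups did not overlap. In PBS it averaged 6.94 ± 0.08 at 3 h and 6.29 ± 0.08 at 1 h, a rise of 0.64 (SE 0.07, adjusted p = 0.00416) that ranked 20 of 24675. With hepcidin it averaged 7.48 ± 0.06 at 3 h and 6.59 ± 0.06 at 1 h, a rise of 0.89 (SE 0.07, adjusted p = 2.57e-05). From low to high the groups stood as PBS 1 h, hepcidin 1 h, PBS 3 h and hepcidin 3 h, without overlap.

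Ptger2 (Entrez gene 19217), which encodes EP2, did not pass in limma at either time. At 3 h it read 6.86, 6.93 and 6.89 on the hepcidin arrays and 6.36, 6.59 and 6.79 on the PBS arrays. The hepcidin arrays were closely spaced and lay above all PBS arrays, with a change of 0.32 (95% interval 0.08 to 0.55, adjusted p = 0.130). At 1 h the groups overlapped, and the change was 0.04 (95% interval -0.19 to 0.28, adjusted p = 0.986).

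Between the times, 3 of the 9 genes rose in hepcidin (Ptgs2, Ptges and Ptgir) and 2 fell (Hpgds and Ptger4), against 5.05% of all genes called, 2.44% higher and 2.61% lower. Arrays of the hepcidin times were apart upward in 5 of the 9 genes and downward in 2, beside 10.5% and 9.56% of all genes (20.1% in either direction). In PBS 3 rose (Ptgs2, Hpgd and Ptgir) and 0 fell, against 0.450% of all genes called, 0.207% higher and 0.243% lower, and 5 of the 9 had an unadjusted p under 0.05, beside 10.6% of all genes. Arrays of the PBS times were apart upward in 4 genes and downward in 1, beside 8.66% and 9.04% of all genes (17.7% in either). With only the PBS groups in the fit, limma called 0 of the 9 genes between the PBS times. These time comparisons share their arrays with the comparisons of hepcidin and PBS.

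Other pathway genes are set beside all genes, of which 0.527% were called higher and 0.0324% lower with hepcidin at 1 h. At 3 h these shares were 2.80% and 2.53%. These other genes of the pathway were read from 8 lists. The list of enzymes that free arachidonate or return it to lipid had 1 of 21 measured genes higher at 1 h. At 3 h it had 1 higher and 1 lower, and the list medians were 0.02 at 1 h and 0.03 at 3 h. Lpcat2, an acyltransferase of inflammatory cells that makes platelet-activating factor, averaged 8.92 in hepcidin and 7.92 in PBS at 3 h, a rise of 1.00 (SE 0.09, adjusted p = 3.2e-05). At 1 h it rose by 0.48 (adjusted p = 0.0436), a call that 10 of 12 left-out arrays removed. Pla2g15, the lysosomal phospholipase A2 gene, averaged 8.74 in hepcidin and 9.47 in PBS at 3 h, a fall of -0.73 (SE 0.11, adjusted p = 0.00118). In the list of other prostanoid enzymes, limma called 0 of 12 genes at both times, and 1 of 12 had an unadjusted p under 0.05 at each. Over all genes, 6.82% had such an unadjusted p at 1 h and 16.9% at 3 h.

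Among other prostanoid receptors and the PPARs, 0 of 10 genes were called in limma at 1 h, where 0 also had an unadjusted p under 0.05. At 3 h 1 fell, Pparg, a nuclear receptor that binds fatty acid derivatives, at -0.41 (adjusted p = 0.00329). Of 6 transporter genes 0 were called at 1 h in limma (0 at an unadjusted p under 0.05) and 2 rose at 3 h. Slco3a1, an organic anion transporter gene, averaged 6.99 in hepcidin and 5.44 in PBS at 3 h, a rise of 1.55 (SE 0.10, 2.93-fold, adjusted p = 9.96e-07). Its effect at 3 h exceeded that at 1 h by 1.65 (SE 0.14, adjusted p = 2.86e-04). Abcc1, an exporter of leukotriene C4, rose by 0.53 (SE 0.06, adjusted p = 1.07e-04), and its effect was larger at 3 h by 0.46 (adjusted p = 0.0203). That difference lost its call without replicate 2 or 3 of hepcidin at 1 h, replicate 3 of PBS at 1 h, or replicate 2 or 3 of PBS at 3 h.

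In the lipoxygenase and leukotriene list, limma called 0 of 16 genes at 1 h (1 at an unadjusted p under 0.05). At 3 h 1 gene was higher, Fpr2, a receptor for formyl peptides and lipoxin A4, and 1 was lower, the epoxide hydrolase gene Ephx1. Fpr2 averaged 7.22 in hepcidin and 3.81 in PBS, a rise of 3.41 (SE 0.25, adjusted p = 3.89e-06), and no fold is given because the PBS level lay below the array median. Ephx1 averaged 7.82 in hepcidin and 8.51 in PBS at 3 h, a change of -0.68 (SE 0.13, adjusted p = 0.00752). Its means at 1 h were 8.04 in hepcidin and 7.88 in PBS.

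Genes of cAMP signalling, through which EP2, EP4 and the prostacyclin receptor act, had 1 of 22 higher at 1 h and 3 higher and 1 lower at 3 h, at list medians of 0.02 and -0.02. Pde4b, a cAMP-degrading phosphodiesterase gene, averaged 5.48 in hepcidin and 3.93 in PBS at 1 h, a rise of 1.55 (SE 0.16, adjusted p = 2.7e-04). At 3 h it averaged 5.60 in hepcidin and 4.19 in PBS, a rise of 1.40 (SE 0.16, adjusted p = 1.68e-04). Both PBS levels lay below the array median, where background makes a change read smaller, so no fold is given and these log2 changes are not exact sizes. The arrestin gene Arrb2 rose by 0.36 and the CREB coactivator gene Crtc2 by 0.31 at 3 h, while the adenylyl cyclase gene Adcy7 fell by -0.35. The Crtc2 call was lost in 9 of 12 cases when an array was left out.

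Of 19 genes known to answer to cAMP and CREB, 1 rose at 1 h, Fos, an AP-1 subunit gene, by 0.88 (adjusted p = 0.0129, lost without hepcidin 1 h replicate 2 or 3). At 3 h Nfil3, a bZIP repressor gene, rose by 0.39 (adjusted p = 0.0443), a call that was lost in 9 of 12 cases when an array was left out. Rgs2, which limits G protein signalling, fell by -1.39 (SE 0.12) at 3 h, and the list medians were 0.04 at 1 h and 0.02 at 3 h.

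The list of RNA-binding proteins that act on Ptgs2 mRNA had 3 of 12 higher at 1 h, and 2 higher and 1 lower at 3 h, at list medians of -0.04 and -0.06. Zfp36, which encodes tristetraprolin, a protein that speeds the decay of AU-rich mRNAs, averaged 10.75 in hepcidin and 9.24 in PBS at 1 h, a rise of 1.51 (SE 0.09, adjusted p = 1.09e-06). At 3 h it averaged 10.06 in hepcidin and 9.55 in PBS, a rise of 0.51 (SE 0.09, adjusted p = 0.00314). The effect on Zfp36 at 3 h was lower than that at 1 h by -0.997 (SE 0.12, adjusted p = 0.00224). Zc3h12a, the gene of the RNase regnase-1, rose by 1.31 at 1 h and by 0.97 at 3 h. Zfp36l1 rose by 0.75 at 1 h, but at 3 h it averaged 9.27 in hepcidin and 9.62 in PBS, a difference that was not called. Its effect at 3 h was lower than that at 1 h by -1.10 (SE 0.16, adjusted p = 0.00615). The related gene Zfp36l2 fell by -0.61 at 3 h.

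**Figure D4:**
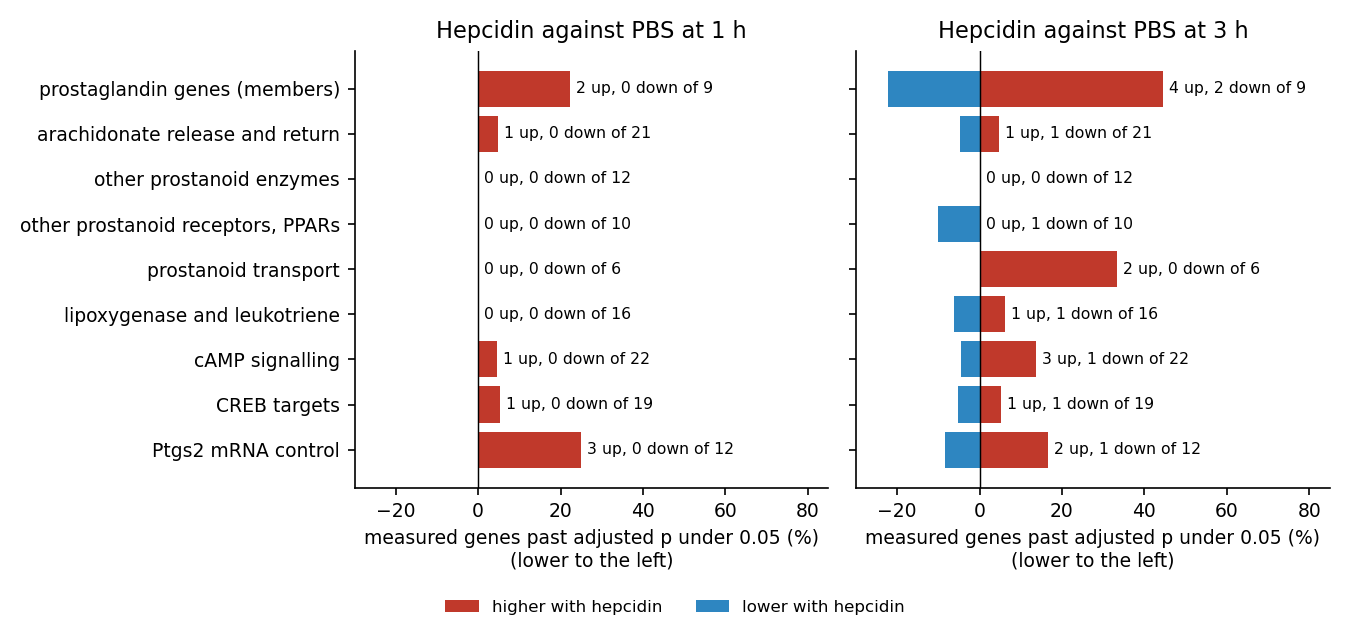
Share of the measured genes of each list that passed an adjusted p under 0.05 for hepcidin against PBS, at 1 h (left panel) and 3 h (right panel), with genes higher in hepcidin to the right of 0 in red and lower ones to the left in blue. The 9 prostaglandin genes had 2 higher at 1 h, and 4 higher and 2 lower at 3 h. The list of other prostanoid enzymes had 0 of 12 at both times. Over all genes, 0.559% passed at 1 h and 5.33% at 3 h. The lists were chosen with earlier results of these data known, so the shares are a description and not a test.

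The genes whose levels tracked each member most closely were taken by Pearson correlation over the 12 arrays, which share groups and times, from 11084 genes above the array median. For Ptgs2 these were Birc3 (r = 0.994), an inhibitor of apoptosis gene, Zc3h12c (0.993) and the adhesion molecule gene Icam1 (0.987). For Ptger4 they were Zfp36 (0.988), the IkB family gene Nfkbiz (0.986) and Tnfaip3 (0.969), which encodes the ubiquitin-editing enzyme A20. Hpgds was closest to Rgs2 (0.970), Lmo2 (0.958) and Jmjd1c (0.956), and Hpgd to Rbl2 (0.971), Stx2 (0.958) and Themis2 (0.955). Ptges was closest to Snord16a (0.957), Gdap10 (0.951) and Hivep2 (0.944), and Ptgir to Tmem38b (0.983), Nol4l (0.982) and Ubap1 (0.976).

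The label of the cells was checked against markers. All 9 measured macrophage markers, among them Csf1r, Adgre1 and Cd68, lay above the array median. Mast cells and platelets also express some of these prostaglandin genes. Of mast cell markers 9 of 10 lay below the array median, Cpa3 and Fcer1a included, with Kit above it. The summed mast cell level on the linear scale was 171 to 178 in hepcidin and 157 to 168 in PBS at 1 h, and 142 to 161 in hepcidin and 148 to 154 in PBS at 3 h. Of 9 platelet and megakaryocyte markers 2, Gp1bb and Gp6, lay below the median, and the sum, to which Pf4 adds most, was 791 to 996 in hepcidin and 723 to 993 in PBS at 3 h. At 1 h it was 880 to 1028 in hepcidin and 780 to 1013 in PBS. Of 11 neutrophil markers 6 lay below the median, with Mpo, Elane, Ngp, Mmp8 and Cxcr2 above it. Of 9 fibroblast markers 7 lay below it, with Col1a1 and Col1a2 above. Itgax of the dendritic cell markers and Nkg7 of the lymphocyte markers also lay above it. In limma 0 markers of mast cells, platelets, dendritic cells, neutrophils, fibroblasts or lymphocytes passed at either time, and their part in the results was not tested.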

How the data were processed

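The deposited table holds log2 values, 1 for each of 25429 probe sets on each of 12 Affymetrix whole-transcript arrays. Per the submitters' processing notes the authors used RMA and Partek, with no version. No label writes the log base, and log2 was taken because RMA returns it and the range of the values allows it. Of the probe sets, 24675 had a gene symbol in the platform's annotation, 1 gene each, all matched to RefSeq by Entrez gene, and 754 are unnamed here.

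A model of 4 group means over all arrays was fitted with limma 3.58.1 under R 4.3.3, with 8 residual and 4.11 prior degrees of freedom, and 5 comparisons were drawn from it. Each comparison's p-values were corrected by the Benjamini-Hochberg method over 24675 genes, with a threshold of 0.05. The number of arrays limits the precision, with a median SE of 0.10. The fit was tested on simulated data.

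The members and lists were chosen with earlier results of these data known. By rule the text names all members, up to 4 called genes a list and comparison, and the 3 nearest patterns. Alternatives covered the replicate block, prior, moderation, filter, normalization, centring, probe sets, weights, samples in the fit, thresholds and each array left out.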

Additional observations from a re-analysis of the deposited data

Results flagged for a closer look

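The effect of hepcidin on Ptger4 differed between the times by a test of the difference itself. On the log2 scale the effect at 3 h minus the effect at 1 h was -0.70 (SE 0.14, adjusted p = 0.0297 in limma), with effects of 0.51 at 3 h and 1.22 at 1 h. All hepcidin arrays lay above all PBS arrays at both times. The call on the difference was lost in 11 of 22 alternatives, 10 of them with an array left out (adjusted p up to 0.0964) and 1 without moderation (adjusted p = 0.0713), and the difference stayed between -0.79 and -0.62.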

How the results depend on the processing

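For hepcidin against PBS, the 2 genes called higher at 1 h and the 4 higher and 2 lower at 3 h stayed at these counts whichever array was left out, and 0 were lower at 1 h throughout. A fold minimum of 1.5 left 2 higher and 1 lower at 3 h, since Hpgds, Ptger4 and Ptgir changed by less. For the difference between the effects, the count higher was 1 in place of 0 (Ptges) with a trended prior, genes above the median mean, median centring, all probe sets, array weights or an adjusted p under 0.1. The count lower was 2 in place of 1 with the replicate block, the trended prior, the filter, median centring or an adjusted p under 0.1, where Hpgd joined Ptger4, and 0 without moderation. With arrays left out both counts ran between 0 and 1. Between the hepcidin times the count lower was 0 in place of 2 with only those groups in the fit or with the fold minimum, and ran between 0 and 2 with arrays left out. The count higher there ran between 3 and 4. Between the PBS times the count higher was 1 in place of 3 without moderation, 0 with only the PBS groups, and between 1 and 3 with arrays left out, and the count lower stayed at 0. Beyond these properties of each setting, the cause was not tested. Of 1026 recomputed member values, 960 kept their side of the threshold, 44 lost a call, 22 gained one, and 0 changed sign while called.

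Replicate numbers are shared between groups, but the labels do not say what they mark. Same-numbered arrays of hepcidin and PBS deviated together with r of 0.06 to 0.13 at 1 h and 0.06 to 0.21 at 3 h, and in both comparisons 2 of 3 pairs were over 0.1. All 6 arrays correlated best with their own number in each, a hint from the data only. With the replicate block, the counts for hepcidin against PBS were as before (2 and 0 at 1 h, 4 and 2 at 3 h), and the difference of effects in Hpgd had an adjusted p of 0.0064. Of the pathway lists at 3 h, the block gave 1 gene lower in place of 0 for other prostanoid enzymes and for transport. It gave 2 lower in place of 1 for arachidonate release and return, cAMP signalling and Ptgs2 mRNA control. At 1 h it gave 2 higher in place of 1 and 1 lower in place of 0 for genes that answer to CREB.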

Other observations

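Within the hepcidin arrays, Pla2g4a, the cytosolic phospholipase A2 gene that releases arachidonate, averaged 9.53 at 3 h and 9.06 at 1 h, a rise of 0.46 (SE 0.09, adjusted p = 0.0103 in limma) that was lost without hepcidin 1 h replicate 3 (adjusted p = 0.0504). Its PBS means were 9.41 at 3 h and 9.04 at 1 h. Creb1, the gene of the cAMP-responsive transcription factor, averaged 9.42 in hepcidin at 3 h and 9.03 at 1 h (change 0.40, adjusted p = 0.0219), beside PBS means of 9.13 and 8.84. The Creb1 call was lost without replicate 2 or 3 of hepcidin at 1 h, or replicate 1 or 2 of hepcidin at 3 h.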
